A study of Mus musculus with 4 samples.

Results

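The 10 genes described here encode the enzymes and the one helper protein that make, convert and clear prostaglandins, thromboxane and leukotrienes: Ptgs1, Ptgs2, Ptges, Hpgds, Hpgd, Tbxas1, Alox5, Alox5ap, Ltc4s and Lta4h. They were chosen by name from 28692 genes of a single-cell UMI matrix, and all 10 were in it. A UMI, or unique molecular identifier, marks one captured RNA molecule. The cells came from the colon lamina propria of 4 male C57/Bl6N mice, and the labels give no age. For about 6 months, on 5 days of each week, 2 mice (DEP 11 and DEP 13) were gavaged with 12 µg of diesel exhaust particles (DEP) in 200 µL PBS, and 2 mice (PBS 2 and PBS 3) with PBS alone. Cells carrying CD11b together with Ly6C or CD64 were sorted, and each mouse filled 1 well of a 10x 3′ v2 run, so the mouse is the replicate and any effect of a well cannot be told apart from that of its mouse.

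Both lipid families start from arachidonic acid, which phospholipases and other lipases release from membranes. The cyclooxygenases Ptgs1 (COX-1, usually constitutive) and Ptgs2 (COX-2, induced by inflammatory signals) convert it to prostaglandin H2, and terminal synthases then make prostaglandin E2 (Ptges), prostaglandin D2 (Hpgds) or thromboxane A2 (Tbxas1), while Hpgd inactivates prostaglandins. In the other arm 5-lipoxygenase (Alox5), presented with its substrate by the membrane protein FLAP (Alox5ap), makes leukotriene A4, which Lta4h converts to leukotriene B4, an attractant of neutrophils, and Ltc4s to the cysteinyl leukotriene C4. In the gut these mediators are known for regulating epithelial repair, blood flow and leukocyte recruitment, and monocytes and macrophages are among their sources.

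The 4 libraries held 4489342 to 10293703 UMIs in 6954 barcodes. Barcodes of at least 1000 UMIs were kept, 4771 in all, with 1218, 675, 1296 and 1582 in DEP 11, DEP 13, PBS 2 and PBS 3 and medians of 5328.5 to 7115.5 UMIs. Of these barcode sequences, 12 occurred in more than one library. Summed over these barcodes, Itgam, which encodes CD11b, stood at 84.9 to 107 counts per 1000000 UMIs in the 4 mice, Fcgr1 (CD64) at 172 to 261 and Ptprc (CD45) at 339 to 361. Levels are given in this unit (CPM), which does not allow a comparison of the levels of different genes. Plasma cell transcripts, with Jchain, Igha and Igkc among them, made up 13250 to 42430 CPM. Barcodes with at least 5% of their UMIs in those 3 genes, 95 in all, are used below for comparison. Plasma cells should lack most of the synthesis genes, but these barcodes also held C1qa RNA, at a median of 12.0 UMIs per 10000. In UMI sums, fewer cells of a type and less RNA per cell cannot be told apart.

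Each barcode was placed in one of 4 ranges by its Ly6c2 level, a marker of monocytes that have just entered the tissue, and its C1qa level, a complement gene of mature macrophages. Ly6c2 was called high at 3 or more UMIs per 10000 and C1qa at 5 or more, with at least 2 UMIs of the gene in either case. The Ly6c2-high C1qa-low range held 62, 32, 20 and 35 barcodes in DEP 11, DEP 13, PBS 2 and PBS 3, and the Ly6c2-low C1qa-high range held 901, 515, 1017 and 1261. A further 609 barcodes were high in both and 319 low in both. Fewer barcodes lay at C1qa levels of 20 to 40 per 10000 (685) than at 10 to 20 or 40 to 60, so results are also given with a C1qa limit of 25, chosen after this was seen. The dip was present in PBS 2 and PBS 3 but not in the DEP mice. From 10 to 20, 20 to 40 and 40 to 60, DEP 11 held 143, 149 and 177 barcodes and DEP 13 held 68, 96 and 180. The summed monocyte markers stood at 6263 to 7725 CPM in the Ly6c2-high C1qa-low range and at 1033 to 1339 CPM in the Ly6c2-low C1qa-high range, and the summed macrophage markers at 10720 to 15340 and 40340 to 51310 CPM. The ranges are cuts through continuous levels, not cell types: 20.3% of the barcodes lay within a factor of 2 of the C1qa limit and 18.9% within a factor of 2 of the Ly6c2 limit. Around the C1qa limit of 25 that share was 34.6%.

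Of the 10 genes, Ptges was barely detected, with 19 UMIs in 16 of 4771 barcodes (0.335%). The others had between 361 UMIs (Alox5, in 6.83% of barcodes) and 13456 UMIs (Alox5ap, in 75.5%). Median detection was 3 of the 10 genes per barcode in the Ly6c2-low C1qa-high range, where the median barcode held 6365.5 UMIs, and 2 in the Ly6c2-high C1qa-low range, at 4657 UMIs. Leaving Ptges aside, the 48 barcodes richest in a gene, the top 1%, carried between 5.24% (Alox5ap) and 23.0% (Alox5) of its UMIs, with 19.7% for Ptgs2 (1199 UMIs), 16.3% for Ltc4s (1610 UMIs) and 13.4% for Lta4h (809 UMIs). This share depends on the number of UMIs and was not compared at equal counts.

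The first comparison asked how the synthesis genes differ between the monocyte-marked and the macrophage-marked end of the sort. In the Ly6c2-low C1qa-high barcodes Ptgs1, Hpgds, Tbxas1 and Ltc4s were 2.73-fold to 9.77-fold higher than in the Ly6c2-high C1qa-low barcodes, and Alox5ap and Hpgd were 2.96-fold and 1.96-fold lower. Thus 6 of the 9 genes tested passed edgeR's quasi-likelihood test with the mouse as a block (Benjamini-Hochberg adjusted p under 0.05), against 12.6% of the 7937 genes tested (999 genes). The 4 that were higher compare with 6.89% of genes called higher and the 2 that were lower with 5.69% called lower. The median log2 fold change of the 9 genes was 1.03, and that of all genes tested 0.10. Ptges was under the filter on low counts and was not tested. Hpgds, Ltc4s and Alox5 had only 12, 8 and 5 UMIs in the Ly6c2-high C1qa-low range. They passed that filter through the Ly6c2-low C1qa-high range, so the calls of Hpgds and Ltc4s are not independent of it. With the C1qa limit of 25, described below, Hpgds and Ltc4s had 90 and 61 UMIs in the Ly6c2-high range.

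**Figure D1:**
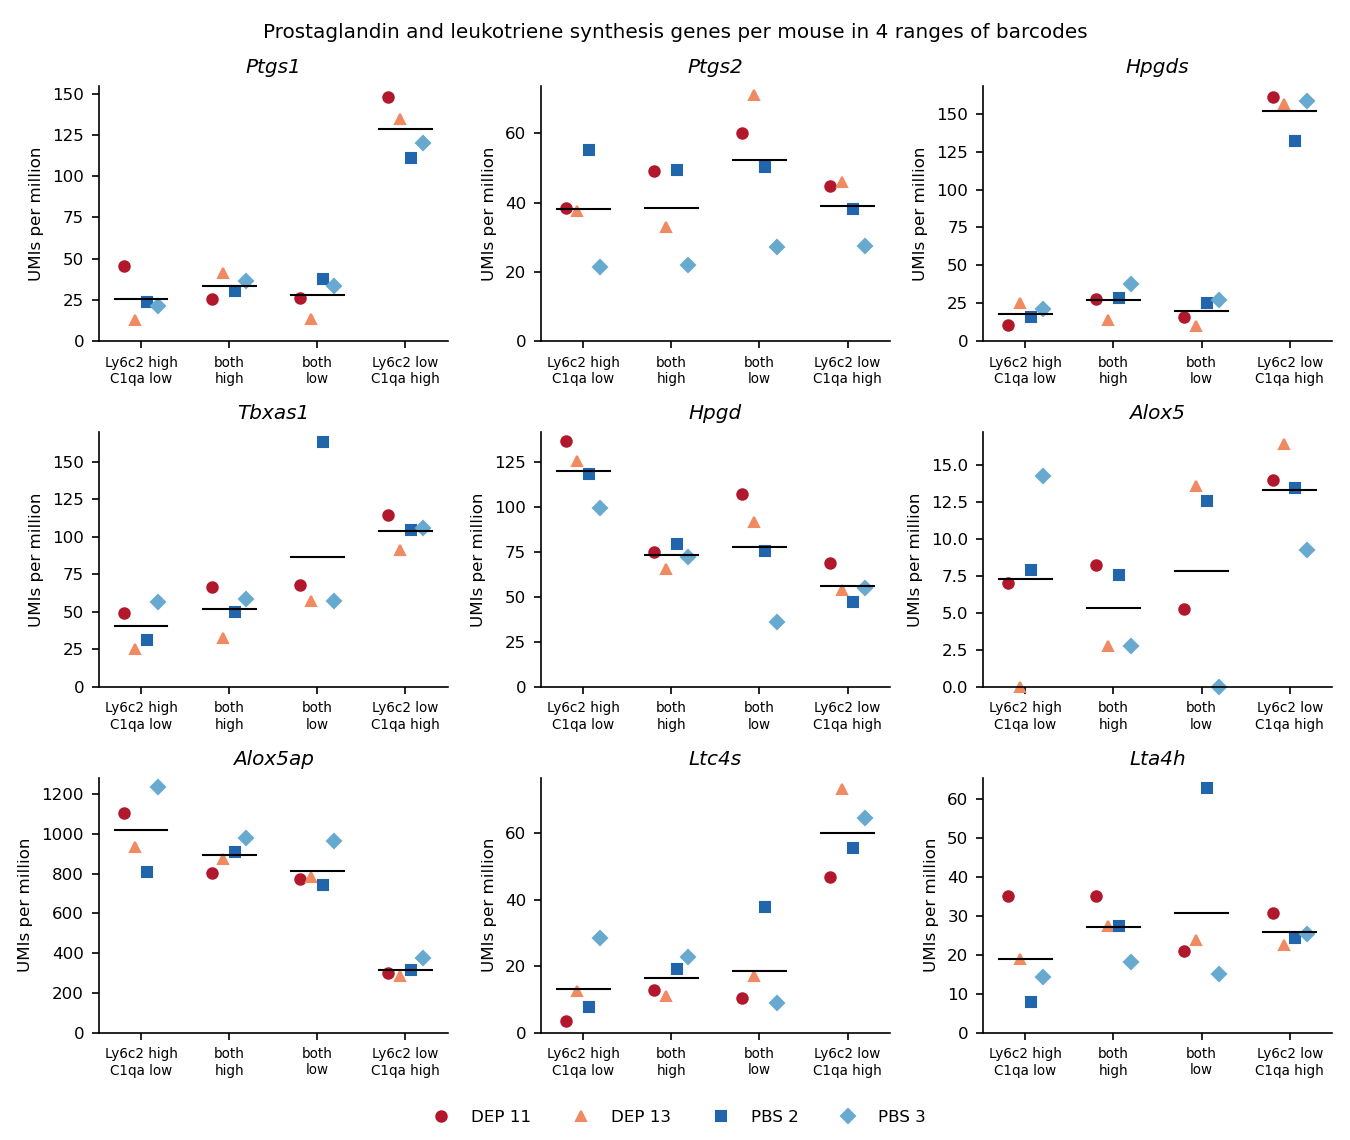
CPM of 9 synthesis genes (y axis, one panel a gene, each with its own scale from 0) in the 4 ranges of barcodes (x axis), with 1 point per mouse and a line at the mean of the 4 mice. Ptgs1, Hpgds and Ltc4s stand above the other 3 ranges in the Ly6c2-low C1qa-high range in every mouse, whereas Alox5ap is lowest there (283 to 374 CPM against 741 to 1236 CPM elsewhere).

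Ptgs1 stood at 45.6, 12.6, 23.6 and 21.3 CPM in the Ly6c2-high C1qa-low barcodes of DEP 11, DEP 13, PBS 2 and PBS 3, and at 148, 135, 111 and 120 CPM in their Ly6c2-low C1qa-high barcodes. It was higher in the latter in 4 of 4 mice without overlap between the ranges, with a log2 difference of 2.31 (SE 0.26, adjusted p = 4.55e-11 in edgeR). The low values rest on 13, 2, 3 and 3 UMIs. In barcodes high in both markers the level was 33.4 ± 6.78 CPM (SD, n = 4 mice), and in barcodes low in both it was 27.7 ± 10.5 CPM, so the level in either range overlapped that of the Ly6c2-high C1qa-low range.

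Ptgs2, the inducible cyclooxygenase, did not pass the test between the ranges. Its level was 38.6, 37.7, 55.1 and 21.3 CPM in the Ly6c2-high C1qa-low barcodes of DEP 11, DEP 13, PBS 2 and PBS 3 and 44.6, 45.8, 38.2 and 27.6 CPM in the Ly6c2-low C1qa-high barcodes. The values of the ranges overlapped, and the log2 fold change was 0.19 with a 95% interval of -0.43 to 0.81 (edgeR adjusted p = 0.813). With the C1qa limit of 25 the sign turned, to -0.18 (edgeR adjusted p = 0.398). The spread between mice was larger than the difference between ranges, and PBS 3 was the lowest mouse in all 4 ranges.

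Of the terminal prostaglandin synthases, Hpgds, the hematopoietic prostaglandin D synthase, showed the largest difference of the 9 genes. It stood at 10.5, 25.1, 15.7 and 21.3 CPM in the Ly6c2-high C1qa-low barcodes of DEP 11, DEP 13, PBS 2 and PBS 3, which rest on 3, 4, 2 and 3 UMIs, and at 161, 156, 132 and 158 CPM in the Ly6c2-low C1qa-high barcodes. The log2 fold change was 3.29 (SE 0.28, edgeR adjusted p = 8.44e-16), and no mouse of one range reached the levels of the other. Tbxas1, the thromboxane synthase, went from 49.1, 25.1, 31.5 and 56.8 CPM to 114, 91.0, 105 and 106 CPM in the same mice. The log2 fold change, 1.45 (SE 0.24, edgeR adjusted p = 3.94e-06), was also positive in 4 of 4 mice. With barcodes thinned to 1000 UMIs it was 0.73, which did not pass (edgeR adjusted p = 0.397). The 2 Ptges UMIs in the Ly6c2-high C1qa-low barcodes (DEP 13 and PBS 3, 1 UMI each) and the 14 UMIs in the Ly6c2-low C1qa-high barcodes do not allow a comparison.

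Hpgd, the dehydrogenase that inactivates prostaglandins, differed in the opposite direction. It stood at 137, 126, 118 and 99.4 CPM in the Ly6c2-high C1qa-low barcodes of DEP 11, DEP 13, PBS 2 and PBS 3 and at 68.8, 54.0, 47.2 and 54.8 CPM in the Ly6c2-low C1qa-high barcodes. The ranges did not overlap, and the log2 fold change was -0.97 (SE 0.21, edgeR adjusted p = 0.000274). With both limits halved the log2 fold change was -0.71, which did not pass (edgeR adjusted p = 0.211), and with barcodes thinned to 1000 UMIs it was -0.57 (edgeR adjusted p = 0.476).

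In the leukotriene arm, the FLAP gene Alox5ap was lower and the leukotriene C4 synthase gene Ltc4s higher at the macrophage-marked end. Alox5ap stood at 1108, 935, 810 and 1236 CPM in the Ly6c2-high C1qa-low barcodes of DEP 11, DEP 13, PBS 2 and PBS 3 and at 298, 283, 315 and 374 CPM in the Ly6c2-low C1qa-high barcodes. Its log2 fold change was -1.57 (SE 0.11, edgeR adjusted p = 7.68e-20), negative in 4 of 4 mice. Ltc4s went from 3.51, 12.6, 7.87 and 28.4 CPM (1, 2, 1 and 4 UMIs) to 46.7, 73.2, 55.6 and 64.5 CPM, or 2.47 on the log2 scale (SE 0.40, edgeR adjusted p = 1.69e-06). All 4 mice moved the same way for both genes. Without PBS 3, whose Ly6c2-high C1qa-low level was the highest, the Ltc4s log2 fold change was 3.1, and without DEP 11 it was 2.13. Thinned to 1000 UMIs a barcode it was 1.63, which did not pass (edgeR adjusted p = 0.186).

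Alox5 itself was sparse, with 2, 0, 1 and 2 UMIs in the Ly6c2-high C1qa-low barcodes of DEP 11, DEP 13, PBS 2 and PBS 3 and 14.0, 16.4, 13.5 and 9.27 CPM in the Ly6c2-low C1qa-high barcodes. Its log2 fold change of 1.03 had a 95% interval of -0.29 to 2.35 (edgeR adjusted p = 0.391). With the C1qa limit of 25, where the lower group rests on more barcodes, it was 5.79, 2.03, 8.73 and 4.26 CPM against 14.4, 18.0, 14.5 and 10.5 CPM, and the difference then passed, at 1.20 on the log2 scale (SE 0.29, edgeR adjusted p = 0.00282). Lta4h, the leukotriene A4 hydrolase, stood at 35.1, 18.8, 7.87 and 14.2 CPM and at 30.8, 22.6, 24.3 and 25.3 CPM, and the ranges overlapped. Its log2 fold change was 0.40 (95% interval -0.40 to 1.20, edgeR adjusted p = 0.640), and it was -0.24 with the C1qa limit of 25.

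**Figure D2:**
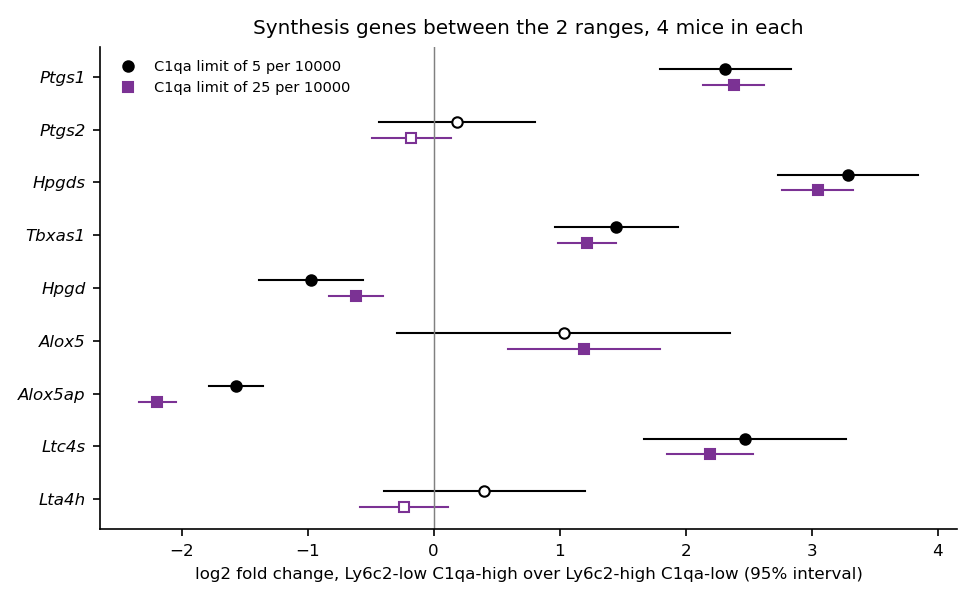
log2 fold change of 9 synthesis genes, Ly6c2-low C1qa-high over Ly6c2-high C1qa-low barcodes (x axis), with 95% intervals over 4 mice. Circles use the C1qa limit of 5 per 10000 and squares the limit of 25, and filled symbols passed an adjusted p of 0.05. Hpgds is highest at 3.29 and Alox5ap lowest at -1.57 with the limit of 5, and Alox5 passes only with the limit of 25.

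With the C1qa limit of 25, 7 of the 9 genes passed, against 34.6% of the 8026 genes tested. The 6 genes named above kept their sign and their call: log2 fold changes were 2.38 for Ptgs1, 3.05 for Hpgds, 1.22 for Tbxas1, 2.19 for Ltc4s, -2.19 for Alox5ap and -0.62 for Hpgd. Alox5ap is thus 4.57-fold lower by this limit, at 958 ± 52.0 CPM (SD, n = 4 mice) in the 693 Ly6c2-high barcodes with less C1qa and 217 ± 34.2 CPM in the 2591 Ly6c2-low barcodes with more. At this limit markers of other cells also differed between the ranges: in the Ly6c2-high range plasma cell markers stood at 27780 to 117500 CPM, against 3768 to 10890 CPM in the other. Dendritic cell markers stood at 30.4 to 76.4 and 11.5 to 24.2 CPM, T and NK cell markers at 20.3 to 40.9 and 3.67 to 16.7 CPM, neutrophil markers at 74.2 to 82.2 and 28.5 to 37.4 CPM, mast cell and basophil markers at 13.5 to 32.4 and 3.3 to 6.5 CPM and eosinophil markers, with Epx at 0, at 4.05 to 35.0 and 2.2 to 3.36 CPM. Fibroblast and endothelium markers were lower in the Ly6c2-high range, at 11.1 to 24.3 CPM against 44.0 to 50.6 CPM. Without the barcodes of the plasma, B and T cell rules, an alternative added after the data were seen, plasma cell markers stood at 3093 to 8441 and 3182 to 9034 CPM and 7 of the 9 genes passed (against 35.4% of 7877 genes), with log2 fold changes of 2.37 for Ptgs1, 3.18 for Hpgds and -2.33 for Alox5ap. The part of the other marker lists was not tested.

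For the 4 genes that were lower in the Ly6c2-high C1qa-low range, the level pooled over mice did not exceed that of the plasma-rule barcodes, in which free RNA is counted too. Pooled in this way, Ptgs1 stood at 29.5 CPM in that range and 33.0 CPM in the plasma-rule barcodes, Hpgds at 16.8 and 43.4 CPM, Tbxas1 at 42.1 and 45.1 CPM and Ltc4s at 11.2 and 19.1 CPM. Single mice stood above the pooled plasma-rule level for Ptgs1 (DEP 11), Tbxas1 (DEP 11 and PBS 3) and Ltc4s (PBS 3). The plasma-rule barcodes had a median of 19317 UMIs and a median C1qa level of 12.0 per 10000, and their part in the differences was not tested. The 105 barcodes of the B cell rule, at a median C1qa level of 42.2, stood at 133, 152, 87.4 and 74.8 CPM for the same 4 genes. The 54 of the T cell rule, at a median C1qa level of 7.955, stood at 25.2, 50.4, 39.6 and 39.6 CPM. These sets of barcodes thus differ, and none is free of C1qa RNA. In barcodes thinned to 1000 UMIs each, a Ptgs1 UMI was found in 2.69% of the Ly6c2-high C1qa-low barcodes (95% Clopper-Pearson interval 0.736% to 6.73%, counting error only), 10.2% of the Ly6c2-low C1qa-high barcodes (9.20% to 11.2%) and 1.05% of the plasma-rule barcodes. Before thinning these shares were 12.8%, 43.1% and 37.9%. For Hpgds the thinned shares were 2.01%, 13.2% and 7.37%. For Alox5ap the thinned shares were 62.4%, 28.8% and 14.7%, so its level in both ranges was above that of the plasma-rule barcodes.

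Markers of other cell types were also summed. Of 10 mast cell and basophil markers, 8 had no UMI in any barcode of at least 1000 UMIs (Cpa3, Fcer1a, Ms4a2, Mcpt1, Mcpt2, Mcpt8, Tpsb2 and Gata2), and the list as a whole stood at 7.01 to 85.2 CPM in the Ly6c2-high C1qa-low range and 4.52 to 13.8 CPM in the Ly6c2-low C1qa-high range. Eosinophil markers reached 7.87 and 4.57 CPM at most, with Epx at 0, and the 6 tuft cell markers together had 8 UMIs. Neutrophil markers stood at 78.7 to 126 CPM in the Ly6c2-high C1qa-low range and 30.8 to 39.7 CPM in the other, with S100a9 and Ngp at 0, and their part in the result was not tested. Fibroblast and endothelium markers stood at 0 to 28.0 CPM in the Ly6c2-high C1qa-low range and 35.7 to 61.7 CPM in the Ly6c2-low C1qa-high range, moving with the genes that were higher there, and epithelium markers at 0 to 31.5 and 10.9 to 107 CPM. Their part was not tested either. Without the barcodes that met a plasma, B or T cell rule, the same number of genes, 6 of 9, passed, against 14.4% of the 7681 genes tested.

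Along the C1qa level Hpgds, Ptgs1, Ltc4s and Alox5ap all changed between 10 to 20 and 20 to 40 per 10000, while Hpgd, Ptgs2 and Lta4h took other courses. The sums below pool the 4 mice in 7 steps from under 5 to 80 or more C1qa UMIs per 10000, and the steps are a description. Hpgds stood at 17.5, 21.95 and 26.3 CPM in the first 3 steps, up to a C1qa level of 20, then at 95.4 CPM from 20 to 40, 184 CPM from 40 to 60 and 217 CPM at 80 and over. Ptgs1 followed it, with 25.1, 29.7 and 33.8 CPM up to 20 and 78.0, 144, 173 and 192 CPM above. Ltc4s did the same, from 13.4 CPM under 5 and 18.1 CPM from 10 to 20 to 49.3 CPM from 20 to 40 and 75.2 CPM at 80 and over. The step between 10 to 20 and 20 to 40 was upward in 4 of 4 mice for each of these 3 genes. Tbxas1 rose in smaller steps, from 54.3 CPM under 5 to 126 CPM at 80 and over.

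Alox5ap ran the other way, at 942, 855 and 723 CPM up to a C1qa level of 20, 397 CPM from 20 to 40 and 189 to 228 CPM above 40. Hpgd was not monotonic: it stood at 99.9 CPM under 5, reached its lowest value of 42.6 CPM from 20 to 40 and stood at 68.8 CPM at 80 and over. Ptgs2 stood between 43.4 and 49.3 CPM up to a C1qa level of 40 and at 35.3, 30.8 and 20.8 CPM in the 3 steps above it. Lta4h moved between 22.8 and 35.2 CPM with no order. The top step held as few as 32 barcodes in DEP 13 and 47 in PBS 3, so the single-mouse values there are less precise than the others.

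**Figure D3:**
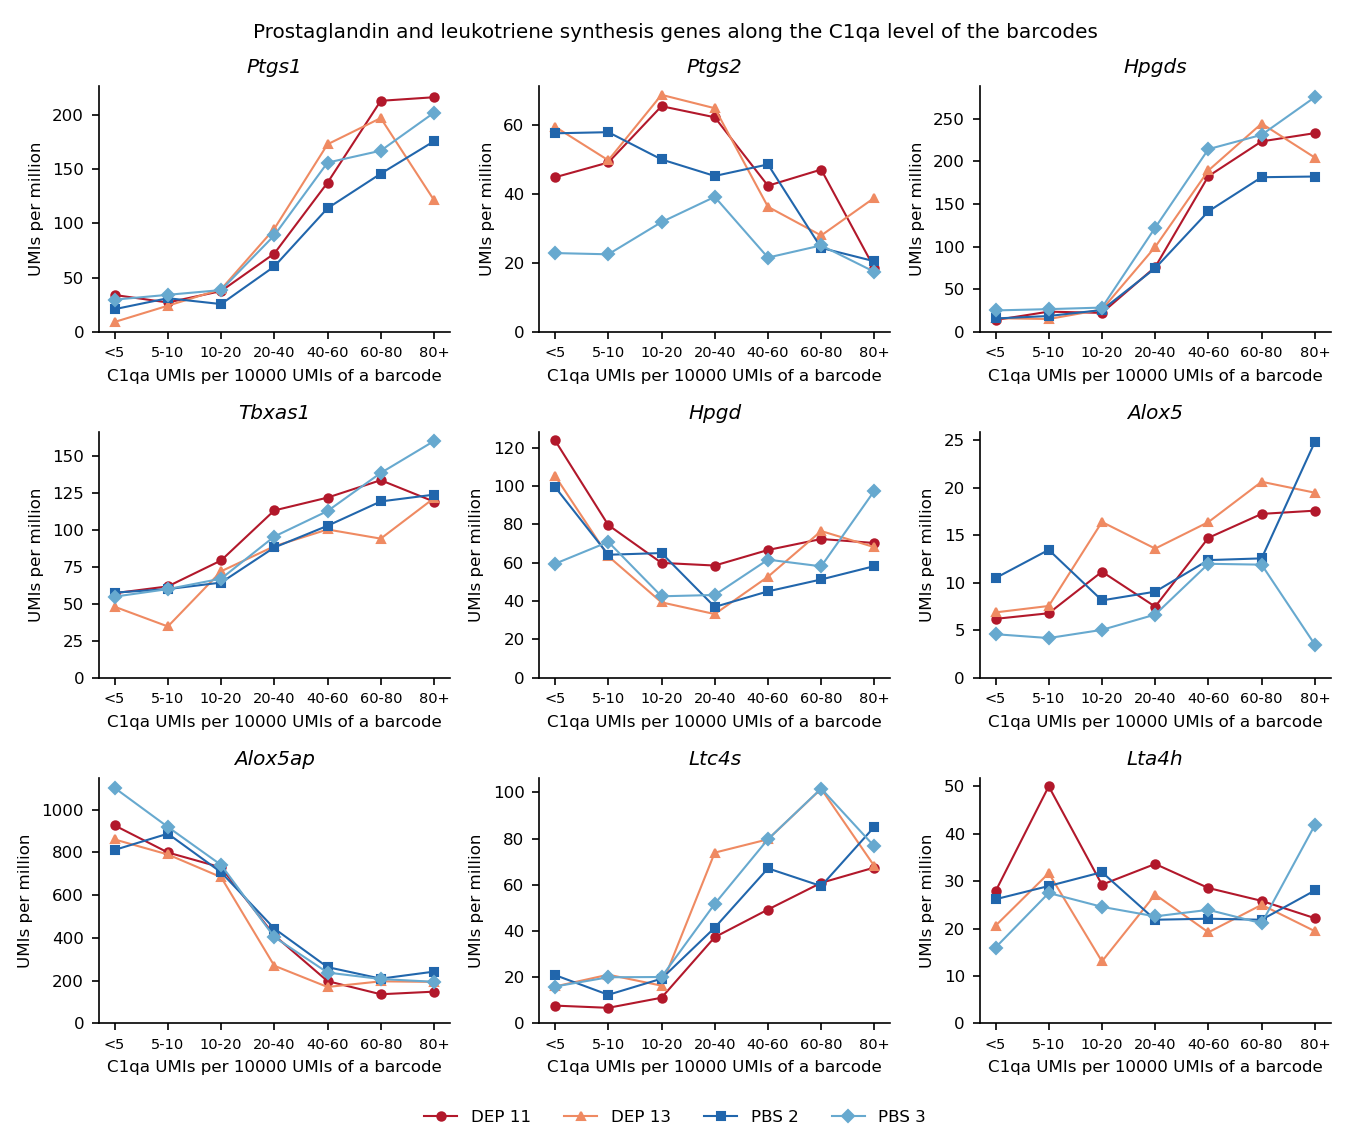
CPM of 9 synthesis genes (y axis, each panel with its own scale from 0) in 7 steps of the C1qa level of the barcodes (x axis, UMIs per 10000), with 1 line per mouse. Ptgs1, Hpgds and Ltc4s leave their low level between 10 to 20 and 20 to 40 in all 4 mice, where Alox5ap falls, and Hpgd is lowest at 20 to 40 when the mice are pooled (42.6 CPM).

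Along the Ly6c2 level, Hpgds fell from 152 CPM in barcodes without a Ly6c2 UMI to 38.3 CPM at 3 to 10 and 7.32 CPM at 20 or more UMIs per 10000, and Ptgs1 from 122 to 39.5 and 23.8 CPM. Alox5ap was 342, 857 and 868 CPM at the same 3 levels and highest, at 1064 CPM, from 10 to 20. Ptgs2 stood at 39.9, 45.2 and 45.8 CPM at those 3 levels and at 24.8 CPM from 10 to 20. The value at 20 or more rests on 25 UMIs, 16 of them from PBS 2 (91.9 CPM), and the other 3 mice stood at 13.7 to 39.3 CPM. Hpgd showed no steady order, with 61.1 CPM without a Ly6c2 UMI, 87.0 CPM at 3 to 10, 79.0 CPM at 10 to 20 and 54.9 CPM (30 UMIs) at 20 or more.

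The genes whose pattern was most like that of each synthesis gene were ranked by Pearson's r of log2(CPM + 1) over 16 sums, 4 ranges in each of 4 mice, among the 7937 genes tested between the ranges. Sums of one mouse share a library, so r is a description. Hpgds ran most closely with Clec4n, Slamf9 and Ms4a7 (r = 0.964, 0.959 and 0.958), and Ptgs1 with Adgre1, which encodes F4/80, Zmynd15 and Apol7c (0.935, 0.928 and 0.925). Ltc4s was nearest to C5ar1, the receptor of complement C5a, Hebp1 and Arhgap19 (0.953, 0.891 and 0.887), and Tbxas1 to P2ry6, Tubb2b and Clic4 (0.915, 0.906 and 0.899). Alox5ap was nearest to Tmsb10, S100a4 and Mrpl33 (0.976, 0.967 and 0.961) and Hpgd to Flna, Map4k1 and Flt1 (0.852, 0.851 and 0.830). For Ptgs2 the nearest were Zfp36 and Nfkb1, both part of the feedback on inflammatory signalling, and Erbin (0.805, 0.793 and 0.789). For the sparse Alox5 they were Vamp5, Hps4 and Acp6 (0.872, 0.868 and 0.864), and for Lta4h Gtf2f1, Primpol and Hsf1 (0.879, 0.876 and 0.871). Among the synthesis genes themselves, Hpgds ran with Ptgs1 (0.850) and Ltc4s (0.844) and opposite to Alox5ap (-0.883), while Ptgs2 had no r above 0.338 in size with any of the others.

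The promoters of the 4 genes that were higher together at the macrophage-marked end are shown from RefSeq (GRCm38.p6), each as 300 bases on the gene's strand that end 50 bases after the start. The table held such an entry for 9 of the 10 genes, all but Alox5ap. Capitals mark matches on either strand to 4 motifs chosen with the sequences at hand: GAGGAA, the core bound by PU.1, a factor of myeloid cells; TTGCNNAA, bound by C/EBP factors; TATAAA; and GGGCGG, the GC box. The Ptgs1 window lies at chr2:36230176-36230475 (+), the Hpgds window at chr6:65144681-65144980 (-), the Tbxas1 window at chr6:38918736-38919035 (+) and the Ltc4s window at chr11:50238483-50238782 (-).
Ptgs1: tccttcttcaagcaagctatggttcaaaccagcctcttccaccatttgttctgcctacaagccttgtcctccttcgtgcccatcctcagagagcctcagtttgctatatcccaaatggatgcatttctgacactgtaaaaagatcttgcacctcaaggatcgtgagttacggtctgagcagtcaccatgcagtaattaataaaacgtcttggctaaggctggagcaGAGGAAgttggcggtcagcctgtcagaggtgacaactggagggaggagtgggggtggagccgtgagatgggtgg
Hpgds: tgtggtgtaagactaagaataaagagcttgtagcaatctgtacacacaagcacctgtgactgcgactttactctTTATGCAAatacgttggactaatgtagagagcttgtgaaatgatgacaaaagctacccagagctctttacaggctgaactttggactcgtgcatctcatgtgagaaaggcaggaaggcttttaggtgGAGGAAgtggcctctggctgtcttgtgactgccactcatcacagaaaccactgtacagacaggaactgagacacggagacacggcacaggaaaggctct
Tbxas1: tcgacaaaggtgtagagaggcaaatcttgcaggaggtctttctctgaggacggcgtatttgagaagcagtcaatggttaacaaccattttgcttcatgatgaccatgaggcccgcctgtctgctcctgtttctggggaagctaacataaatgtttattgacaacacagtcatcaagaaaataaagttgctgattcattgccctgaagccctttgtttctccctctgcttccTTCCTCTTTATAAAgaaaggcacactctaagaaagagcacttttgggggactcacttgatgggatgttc
Ltc4s: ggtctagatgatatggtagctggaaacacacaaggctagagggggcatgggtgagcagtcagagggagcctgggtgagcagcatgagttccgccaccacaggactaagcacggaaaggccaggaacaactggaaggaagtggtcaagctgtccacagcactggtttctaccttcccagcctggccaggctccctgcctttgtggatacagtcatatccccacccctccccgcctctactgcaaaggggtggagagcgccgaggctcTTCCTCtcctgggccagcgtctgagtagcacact
A GAGGAA match was in all 9 windows, and in 28.3% of the 32851 RefSeq promoters of the same length. TTGCNNAA was in 2 of 9 (Hpgds and Ptgs2; 10.8% of all promoters), TATAAA in 2 of 9 (Tbxas1 and Hpgd; 13.6%) and GGGCGG in 4 of 9 (35.7%), none of them among the 4 shown. In Tbxas1 a GAGGAA match on the opposite strand adjoins TATAAA matches on both strands that overlap each other. A match is a string of letters and not a site of binding. The Tbxas1 start used by RefSeq lies 43582 bases downstream of the gene start in the annotation used to name the counts, that of Hpgds 178, that of Ltc4s 84 and that of Ptgs1 0 bases.

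The files' gene records place Ptgs1 at chr2:36230426-36252272 (+), Ptgs2 at chr1:150100031-150108227 (+), Ptges at chr2:30889471-30929863 (-), Hpgds at chr6:65117293-65144908 (-), Hpgd at chr8:56294585-56321043 (+), Tbxas1 at chr6:38875404-39084585 (+), Alox5 at chr6:116410077-116461178 (-), Alox5ap at chr5:149264767-149288153 (+), Ltc4s at chr11:50236461-50238616 (-) and Lta4h at chr10:93453411-93484875 (+), all on mm10. Opposite-strand genes overlapped 3 of them: Hipk2 (436 UMIs) and 2 antisense genes overlap Tbxas1, Gm19719 (9 UMIs) overlaps Alox5ap and Gm26542 (31 UMIs) overlaps Ltc4s. Whether strand was used in counting is not stated in the labels.

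The wider pathway was described with a list of 58 other genes, all in the matrix, of which 33 passed the filter between the ranges. Of these, 8 were higher and 6 lower in the Ly6c2-low C1qa-high barcodes, beside 6.89% of all genes called higher and 5.69% called lower, with a median log2 fold change of 0.42 against 0.10 for all genes. With the C1qa limit of 25, 15 were higher and 7 lower, beside 17.3% of all genes in each direction. Among 6 genes that release arachidonic acid or remodel its lipids, 3 were higher and none lower: Abhd12, a lysophospholipase (log2 fold change 1.72, SE 0.28), Pla2g7, the platelet-activating factor acetylhydrolase (1.38, SE 0.15, from 121 to 200 CPM up to 339 to 415 CPM in the 4 mice) and Pla2g15, a lysosomal phospholipase (1.25, SE 0.35). Pla2g4a, the cytosolic phospholipase A2 that supplies both arms, stood at 14.2 to 35.1 CPM and 27.4 to 35.7 CPM (log2 fold change 0.21, edgeR adjusted p = 0.821). It passed with the C1qa limit of 25, at 0.82 on the log2 scale (SE 0.17, edgeR adjusted p = 0.000888).

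Of 17 other enzymes tested, 3 were higher and 3 lower. Ggt5, which trims leukotriene C4 to D4, had the largest positive value of the list (log2 fold change 2.29, SE 0.69, edgeR adjusted p = 0.0153) on 0 to 7.87 CPM in the Ly6c2-high C1qa-low barcodes and 16.3 to 21.2 CPM in the others. It passed the filter on low counts through the latter barcodes, where it is high. Mgst1, a microsomal glutathione transferase of the family that also holds Ltc4s, was lower, at -2.72 (SE 0.14, edgeR adjusted p = 6.72e-26), from 326 to 448 CPM down to 48.9 to 65.3 CPM. Gpx1, a glutathione peroxidase, was also lower (-0.70, SE 0.10). Neither of the 2 transporters tested passed, whereas 1 of them, Slco3a1, did with the C1qa limit of 25 (log2 fold change 1.18, SE 0.26, edgeR adjusted p = 0.00132).

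Of 7 receptors tested, 2 were higher and 2 lower. The receptor of leukotriene B4, Ltb4r1, stood at 63.0 to 121 CPM in the Ly6c2-high C1qa-low barcodes and 23.9 to 40.1 CPM in the Ly6c2-low C1qa-high barcodes (log2 fold change -1.69, SE 0.25, edgeR adjusted p = 1.63e-07). The prostacyclin receptor Ptgir was lower as well (-2.81, SE 0.72, edgeR adjusted p = 0.00311), on 87 UMIs in all. Cysltr1, a receptor of cysteinyl leukotrienes, and Cmklr1, the chemerin receptor, were higher (1.21, SE 0.37, and 1.69, SE 0.39). Ptger4, a prostaglandin E2 receptor, stood at 7.10 to 52.6 and 31.6 to 49.2 CPM and did not pass (edgeR adjusted p = 0.449). Anxa1, which restrains phospholipase A2, was lower (-0.98, SE 0.14).

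**Figure D4:**
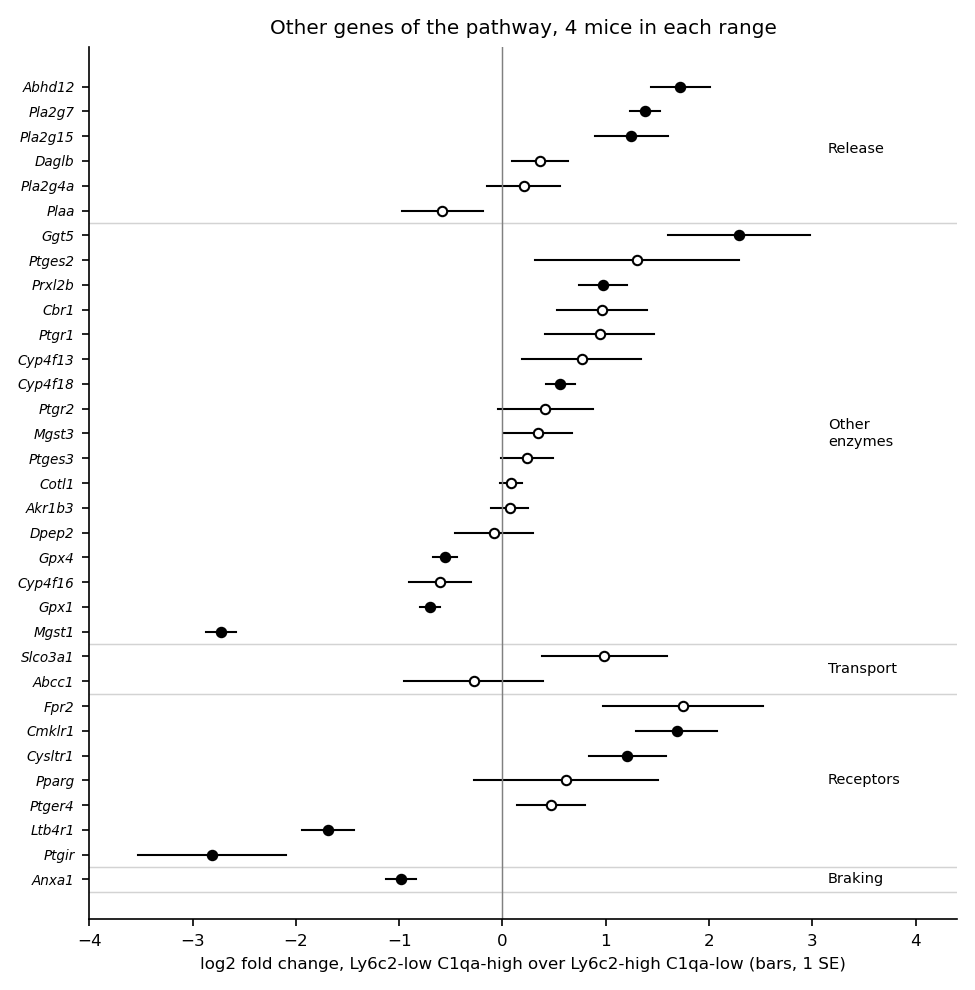
log2 fold change, Ly6c2-low C1qa-high over Ly6c2-high C1qa-low barcodes (x axis), of the 33 other pathway genes tested, grouped by role, with bars of 1 SE over 4 mice. Filled points passed an adjusted p of 0.05: 8 lie to the right and 6 to the left of 0, with Ggt5 at 2.29 and Ptgir at -2.81 as the extremes.

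The second comparison asked whether DEP changed the synthesis genes. None of the 9 genes tested passed edgeR's test between the 2 DEP and the 2 PBS mice over all barcodes, where 0% of the 10953 genes tested passed, at an unadjusted p under 0.05 313 genes (2.86%), and 5 genes with DESeq2. None of the 9 passed in the Ly6c2-low C1qa-high barcodes either, where 0% of 10622 genes passed, 390 (3.67%) had an unadjusted p under 0.05, and DESeq2 called 6. No synthesis gene was among the DESeq2 calls. In the Ly6c2-high C1qa-low barcodes only Alox5ap and Hpgd had enough UMIs to be tested and neither passed, against 0.0574% of 1742 genes, which is 1 gene, the immunoglobulin gene Iglc2 (log2 fold change -2.44, edgeR adjusted p = 0.0468), named after its value was seen.

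Over all barcodes Ptgs2 had the largest log2 fold change of the 9 genes. It stood at 45.7 and 46.1 CPM in DEP 11 and DEP 13 and at 40.2 and 26.8 CPM in PBS 2 and PBS 3. Both DEP mice were above both PBS mice, with PBS 3 the farthest. The log2 fold change was 0.46 (SE 0.20, 95% interval 0.0057 to 0.91), its unadjusted edgeR p was under 0.05, and its adjusted p was 0.9995. Leaving out a mouse gave 0.242 (without PBS 3) to 0.708 (without PBS 2). In the Ly6c2-low C1qa-high barcodes it was also 0.46 (95% interval 0.046 to 0.88), again with an unadjusted p under 0.05 and an edgeR adjusted p of 0.9997. Leaving out a mouse gave 0.29 to 0.66 there, lowest without PBS 3.

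The other genes differed less between the groups. Over all barcodes the DEP mice lay wholly above the PBS mice for 4 of the 9 genes, Ptgs1, Ptgs2, Hpgd and Alox5, against 28.6% of all genes tested with such a separation in either direction. In the Ly6c2-low C1qa-high barcodes, whose values by mouse are given above, the DEP mice lay wholly on one side of the PBS mice for 4 of the 9 genes, Ptgs1, Ptgs2 and Alox5 above and Alox5ap below, against 29.8% of all genes tested. The log2 fold changes were 0.29 for Ptgs1 (95% interval -0.067 to 0.64), 0.41 for Alox5 (-0.14 to 0.97), 0.27 for Hpgd (-0.14 to 0.67), 0.12 for Hpgds (-0.26 to 0.50), 0.12 for Lta4h (-0.34 to 0.57), -0.014 for Ltc4s (-0.52 to 0.49), -0.035 for Tbxas1 (-0.40 to 0.33) and -0.25 for Alox5ap (-0.63 to 0.13). With this C1qa limit of 5, every interval but that of Ptgs2 includes 0, and all lie within a log2 fold change of 1 in either direction. With the limit of 25, the interval of Ptgs2 reached 0 (0.42, -0.0020 to 0.85) and that of Alox5ap did not (-0.39, -0.74 to -0.052), and again none of the 9 genes passed.

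**Figure D5:**
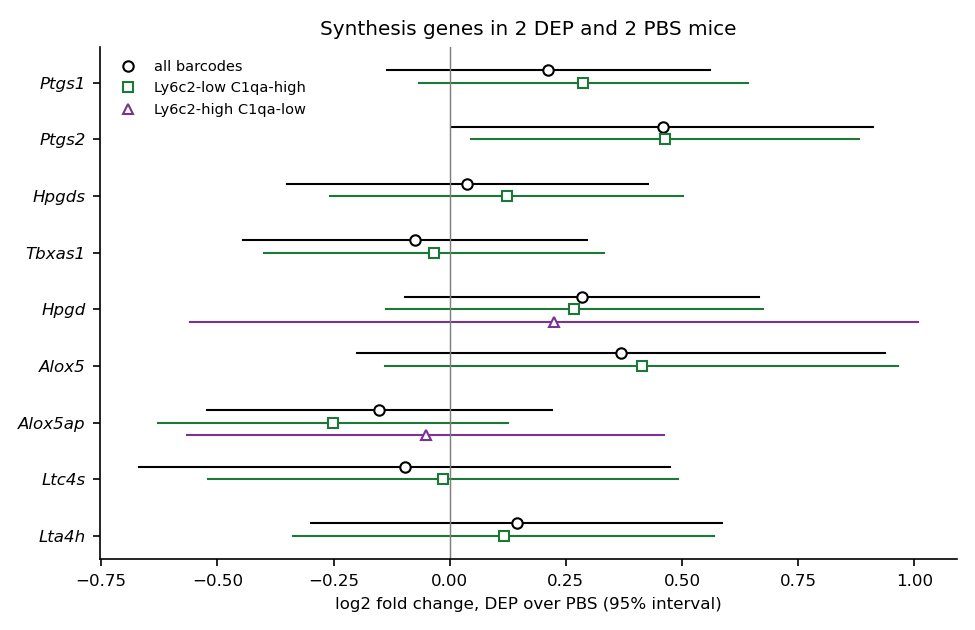
log2 fold change, DEP over PBS (x axis), of 9 synthesis genes with 95% intervals, 2 mice in each group, for all barcodes, the Ly6c2-low C1qa-high barcodes and, where tested, the Ly6c2-high C1qa-low barcodes, with the C1qa limit of 5. Open symbols did not pass an adjusted p of 0.05, which is the case for every one, and only the intervals of Ptgs2 leave out 0.

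In the Ly6c2-high C1qa-low barcodes the DEP log2 fold change was -0.052 for Alox5ap (95% interval -0.57 to 0.46) and 0.22 for Hpgd (-0.56 to 1.01). At the limit of 25, 8 synthesis genes were tested in these barcodes and none passed, as was the case for all 6222 genes tested (177 with an unadjusted p under 0.05). Both DEP mice were then below both PBS mice for Ltc4s (log2 fold change -0.88, 95% interval -1.85 to 0.092), Hpgds (-0.62, -1.57 to 0.33) and Alox5ap (-0.14, -0.54 to 0.27), 3 of 8 genes, while 27.6% of all genes tested had such a separation in either direction. Whether the effect of DEP differed between the ranges was tested as an interaction, which no synthesis gene passed, against 0.227% of 7937 genes. In simulated data this test recovered 10% of genes whose effect differed 2-fold and 41% of those that differed 4-fold. The simulation changed only genes above a minimum mean count, with the same spread for all genes and equal levels in the 2 ranges. It does not give the recovery for the synthesis genes, most of which are sparse in the Ly6c2-high C1qa-low barcodes. At the C1qa limit of 25 none of the 9 passed either, and the interval of 1 of them, Hpgds, left out 0 (difference in log2 fold change 0.74, 95% interval 0.090 to 1.39, edgeR adjusted p = 0.967), as it did for 4.54% of all 8026 genes tested, those with an unadjusted p under 0.05. Of the other pathway genes, 0 of 37 tested passed between DEP and PBS over all barcodes. There 1 had an unadjusted p under 0.05, Cmklr1 (log2 fold change 0.40, edgeR adjusted p = 0.9995). Since several synthesis genes differ between the ranges, the share of barcodes in each range bears on the sums over all barcodes. The Ly6c2-high C1qa-low share was 4.92% ± 0.247 in DEP and 1.88% ± 0.473 in PBS mice (SD, n = 2 each), a difference of 3.04 points with p = 0.33 in a two-sided exact permutation test, the smallest p that 2 against 2 mice allow. With the C1qa limit of 25 the shares were 13.9% and 14.8%, a difference of -0.885 points.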

How the data were processed

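Colon cells of 4 mice were measured by 10x 3′ single-cell RNA-seq. The deposited matrix holds raw UMI counts per gene and barcode; per the labels it was made with Cell Ranger and STAR 2.6.1a on mm10, with R 3.5.1 also named. The Cell Ranger version, annotation and counting options are not stated in the labels. Ensembl identifiers were matched to GENCODE M21 symbols (28416 of 28692). Barcodes under 1000 UMIs were left out. No correction for free RNA was made, and doublets were left in, with scrublet scores (scanpy 1.11.5) used in an alternative. UMI counts were summed per mouse and range and tested with edgeR 4.0.16 (filterByExpr, TMM, glmQLFit and glmQLFTest, Benjamini-Hochberg adjustment over all genes tested) in R 4.3.3. The comparison of ranges had the mouse as a block, since both ranges come from each mouse. DESeq2 1.42.0 was an alternative, as were other UMI minimums, limits, filters, scalings, thinning and leaving out each mouse. CPM are UMIs over all UMIs of the same sum. Scripts were tested on simulated data: of genes changed 2-fold between DEP and PBS over all barcodes, 73% were recovered, 48% between the ranges and 10% in the interaction (7620 genes tested). Only genes above a minimum mean count were changed, with the same spread for all, so these shares do not hold for sparse genes. Unchanged genes called numbered 4 over all barcodes, 7 for DEP in Ly6c2-high C1qa-low barcodes, 1 in Ly6c2-low C1qa-high barcodes, 4 between the ranges and 0 in the interaction. The synthesis genes and the pathway list were chosen with earlier results of these data known. Named genes are the 10 synthesis genes, the 3 genes most like each, and of the pathway list at most 5 per direction between the ranges, 3 per direction for DEP, and genes named as not passing.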

Additional observations from a re-analysis of the deposited data

Results flagged for a closer look

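Ptgs2 gave a signal in data that the comparisons do not use, the 1614 barcodes under 500 UMIs, which together hold 471730 UMIs. Pooled over mice it stood at 195 CPM there, and at 38.2 CPM in the barcodes of at least 1000 UMIs. It was higher in the shallow barcodes in 4 of 4 mice, by ratios of 6.01 (DEP 11, 45 UMIs), 3.497 (DEP 13, 10 UMIs), 5.12 (PBS 2, 25 UMIs) and 3.60 (PBS 3, 12 UMIs). These UMIs came from 82 barcodes (5.08%), with at most 3 in one. Of the 1031 genes with at least 50 UMIs in the shallow barcodes, 59 (5.72%) had a ratio at least as high. Mitochondrial genes made up 23.5% of the UMIs of the shallow barcodes and 1.92% of those of the deeper ones. Neutrophil markers stood at 97.7 to 178 CPM in the shallow barcodes and 37.3 to 46.5 CPM in the deeper ones, and epithelial markers at 140 to 435 and 11.7 to 98.5 CPM. Mast cell and basophil markers stood at 32.9 to 129 and 9.18 to 16.8 CPM and T and NK cell markers at 49.3 to 73.3 and 17.2 to 39.7 CPM, all 4 lists being higher in the shallow barcodes in 4 of 4 mice. Their part in the Ptgs2 level was not tested. Alox5ap, by contrast, stood lower in the shallow barcodes, at a ratio of 0.51.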

How the results depend on the processing

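Between the ranges, 6 of 9 synthesis genes passed under most alternatives, beside 999 of 7937 genes in the main fit. With halved limits 5 passed, beside 454 of 7599 genes, and with doubled limits 7, beside 1738 of 7693. With the C1qa limit of 25 it was also 7, beside 2779 of 8026. When barcodes were thinned to 1000 UMIs, 3 of only 7 synthesis genes tested passed, beside 308 of 2768 genes. Hpgd (-0.57), Tbxas1 (0.73) and Ltc4s (1.63) no longer passed there. Of 169 refits of single genes between the ranges, 158 kept sign and call, and 4 turned sign: with the C1qa limit of 25, Ptgs2 (-0.177, and -0.26 without lymphoid barcodes) and Lta4h (-0.238, and -0.296 without them). Genes called between the ranges numbered 999, 308 thinned, 454 with halved and 1738 with doubled limits, 2779 with the C1qa limit of 25 (2787 without lymphoid barcodes), 784 with no replicate block, and 579 to 1004 without 1 mouse, 579 without DEP 11. Without the block the same number of synthesis genes, 6, passed, beside 784 of 7937 genes.

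No paired analysis was possible between DEP and PBS because the mice share no replicate numbers. Over all barcodes 0 genes were called, 2 thinned, 5 with DESeq2, 119 with no gene filter and 7 to 26 without 1 mouse. In Ly6c2-high C1qa-low barcodes 1 gene was called, 0 thinned, with halved limits, without lymphoid barcodes, with the C1qa limit of 25 or with both, 2 with DESeq2 or doubled limits, 10 with a filter on 5% of barcodes, 25 with no filter and 14 to 43 without 1 mouse. In Ly6c2-low C1qa-high barcodes it was 0, 6 with DESeq2, 132 with no filter and 0 to 37 without 1 mouse. The interaction gave 18, 0 with halved limits, 2 thinned, with DESeq2 or with the C1qa limit of 25, 7 without lymphoid barcodes, 5 without them at the C1qa limit of 25 and 3 to 43 without 1 mouse. A fit without 1 mouse leaves 1 mouse in a group, which is assumed to vary like the other group. No synthesis gene passed in any of these.

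Some DEP log2 fold changes turned sign, none of them called. Over all barcodes, thinning gave -0.121 for Hpgds and 0.0142 for Tbxas1, and without 1 mouse the ranges were -0.145 to 0.236 (Hpgds), -0.235 to 0.0591 (Tbxas1), -0.309 to 0.0153 (Alox5ap), -0.489 to 0.228 (Ltc4s) and -0.0702 to 0.307 (Lta4h). In Ly6c2-low C1qa-high barcodes, thinning gave -0.0191 for Hpgds and 0.222 for Tbxas1, doubled limits 0.0314 for Tbxas1 and 0.0469 for Ltc4s, and Ltc4s was 0.00443 from 500 UMIs and 0.0126 without lymphoid barcodes. There the ranges without 1 mouse were -0.0449 to 0.313 (Hpgds), -0.18 to 0.0914 (Tbxas1), -0.395 to 0.312 (Ltc4s) and -0.105 to 0.284 (Lta4h). Alox5ap in Ly6c2-high C1qa-low barcodes was 0.00603 with no filter and -0.289 to 0.268 without 1 mouse. The DEP minus PBS share of Ly6c2-high C1qa-low barcodes was -0.885 points with the C1qa limit of 25, and that of Ly6c2-low C1qa-high barcodes, -3.96 points, was 0.477 with halved limits. The cause of these changes was not tested. Depth limits the Ly6c2-high C1qa-low sums, where Hpgds, Ltc4s, Alox5 and Ptges had at most 4 UMIs a mouse.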

Other observations

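Lta4h was higher in the barcodes that met a T cell rule (at least 3 UMIs of Cd3d, Cd3e, Cd3g and Trbc2 together) than in any of the 4 ranges, at 93.6 CPM on 26 UMIs in 54 barcodes, against 22.5 to 26.5 CPM in the ranges and 8.10 CPM in the plasma-rule barcodes. Thinned to 1000 UMIs, 6 of these 54 barcodes (11.1%) carried a Lta4h UMI, and 2.55% of the Ly6c2-low C1qa-high barcodes. The 95% Clopper-Pearson interval of the former, 4.19% to 22.6%, pools the mice and holds counting error only. The T cell rule barcodes had a median of 3942 UMIs, came from all 4 mice (11, 7, 16 and 20 in DEP 11, DEP 13, PBS 2 and PBS 3) and were not compared as a group of their own. Those that fell in a range stayed in its sums, except in the alternative without lymphoid barcodes. Alox5ap stood at 356 CPM in them and Ptgs1 at 25.2 CPM.

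Barcodes low in both markers, 319 in all, had the highest mean Ptgs2 level of the 4 ranges, 52.2 ± 18.7 CPM (SD, n = 4 mice), with 60.2, 71.1, 50.2 and 27.2 CPM in DEP 11, DEP 13, PBS 2 and PBS 3. The values overlap those of the other ranges, and the difference was not tested. These barcodes were the shallowest of the 4 ranges, with a median of 3092 UMIs. In PBS 2, which gave 35 of them, Tbxas1 stood at 163 CPM (13 UMIs) and Lta4h at 62.8 CPM (5 UMIs), against 57.5 to 68.0 CPM and 15.1 to 23.7 CPM in the other 3 mice.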
